A study of Mus musculus with 74 samples.

Results

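The peaks described here lie near vomeronasal receptor genes and were called for KRAB-ZFPs, the zinc finger proteins of mouse that carry a KRAB domain. A peak was included when the midpoint of its 200 bp window lay within 20 kb of a gene whose symbol starts with Vmn1r or Vmn2r in the gencode vM1 annotation of mouse build mm9. This gave 346 of the 53011 peaks assigned to a labelled KRAB-ZFP, or 0.653% of all peaks. The choice used position only and no measured value. Of the 67 KRAB-ZFPs with peaks, 41 had at least 1 such peak and 26 had none. The 3 peaks just inside the limit had midpoints 19948, 19962 and 19974 bp from a receptor gene, and the 3 just outside it 20009, 20216 and 20341 bp.

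Each KRAB-ZFP was overexpressed with an epitope tag from a stably integrated vector, resistant clones were pooled, and its binding was measured by ChIP-seq, in which cross-linked chromatin carrying the tagged protein is immunoprecipitated and sequenced. There were 18 KRAB-ZFPs with an N-terminal 3XFLAG tag in F9 EC cells (a mouse embryonal carcinoma line), called against input DNA plus a control ChIP with the FLAG antibody, and 30 with a 3XHA tag in F9 EC cells, called against input DNA plus a control ChIP with the HA antibody. Another 10 carried a C-terminal 3XHA tag in F9 EC cells and were called against a control ChIP labelled Gm14296, and 9 carried a C-terminal 3XHA tag in B6 ES cells (embryonic stem cells) and were called against input. Each KRAB-ZFP had 1 sample, so the value of a single KRAB-ZFP has no replicate error, and the tests below take KRAB-ZFPs as the units. The deposited table gives tags per peak and no library size, so the depth behind a peak is known only as its tags. None of these cells is a vomeronasal neuron, and expression of the receptors is not measured in these data.

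Vomeronasal receptors are G protein-coupled receptors of sensory neurons in the vomeronasal organ, where they detect pheromones and other social and predator cues. The V1R receptors (Vmn1r genes) have a short extracellular part and a coding region in a single exon, and are expressed with the G protein subunit Gnai2. The V2R receptors (Vmn2r genes) carry a long extracellular domain encoded by several exons and are expressed with Gnao1. In rodents both families are large, lie in tandem arrays made by repeated local duplication, and hold many pseudogenes. KRAB-ZFPs are DNA-binding repressors that recruit the corepressor KAP1, and many of them bind transposable elements.

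The sequences under these peaks were largely repeated ones, so they are shown first. For each KRAB-ZFP with at least 5 of these peaks, the 12-base word found in the largest number of its windows away from the receptor genes was taken, on either strand, and then looked up in its windows near them. In 12 of 16 KRAB-ZFPs the word was found in under 1% of the windows of all other KRAB-ZFPs. In the other 4 (Gm6710, Gm13251, Zfp457 and Gm13235) it was a run of A or a CA repeat and is not considered further. The windows printed here are 200 bases of mm9 each, on the strand where the word reads forward, with the word in capitals. For Gm14406, Gm14419, Gm8898, Gm21082 and Zfp808, the window of highest fold enrichment that holds the word is shown, because most windows of each of these KRAB-ZFPs were alike in sequence:
Gm14406, chr5:152397230-152397429, plus strand, upstream of Vmn2r18: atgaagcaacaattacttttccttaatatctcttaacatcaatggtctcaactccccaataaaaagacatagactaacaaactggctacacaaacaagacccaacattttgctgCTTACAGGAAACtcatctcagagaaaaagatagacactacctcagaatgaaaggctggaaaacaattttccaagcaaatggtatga
Gm14419, chr7:93180609-93180808, minus strand, downstream of Vmn2r-ps81: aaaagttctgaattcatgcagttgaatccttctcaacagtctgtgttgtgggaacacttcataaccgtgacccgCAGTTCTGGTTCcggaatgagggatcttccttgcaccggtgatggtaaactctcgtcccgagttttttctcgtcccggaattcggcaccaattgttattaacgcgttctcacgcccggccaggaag
Gm8898, chr7:22196247-22196446, minus strand, upstream of Vmn1r-ps75: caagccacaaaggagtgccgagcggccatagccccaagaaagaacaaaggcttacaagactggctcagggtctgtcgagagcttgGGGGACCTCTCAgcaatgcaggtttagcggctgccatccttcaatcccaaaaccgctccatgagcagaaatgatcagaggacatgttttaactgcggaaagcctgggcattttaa
Gm21082, chr7:9101459-9101658, plus strand, in an intron of Vmn2r38: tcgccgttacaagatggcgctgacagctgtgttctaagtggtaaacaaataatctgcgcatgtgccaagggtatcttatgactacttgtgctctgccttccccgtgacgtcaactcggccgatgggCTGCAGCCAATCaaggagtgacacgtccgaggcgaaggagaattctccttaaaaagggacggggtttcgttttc
Zfp808, chr17:19178228-19178427, plus strand, upstream of Vmn2r98: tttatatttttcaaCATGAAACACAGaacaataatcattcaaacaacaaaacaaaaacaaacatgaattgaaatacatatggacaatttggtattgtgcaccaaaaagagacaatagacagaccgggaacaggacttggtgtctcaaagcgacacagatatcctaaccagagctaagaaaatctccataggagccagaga

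For Gm13157, the window of highest fold enrichment of all 346 is shown, beside 3 of its 8 windows in the large V1R cluster of chromosome 7, because the latter are near copies of each other and lie beside different receptor genes:
Gm13157, chr13:22265749-22265948, plus strand, downstream of Vmn1r191: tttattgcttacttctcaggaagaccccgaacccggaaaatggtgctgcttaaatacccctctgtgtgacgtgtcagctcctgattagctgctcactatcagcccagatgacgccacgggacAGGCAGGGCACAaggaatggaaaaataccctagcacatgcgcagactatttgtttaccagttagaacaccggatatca
Gm13157, chr7:20698079-20698278, minus strand, downstream of Vmn1r91: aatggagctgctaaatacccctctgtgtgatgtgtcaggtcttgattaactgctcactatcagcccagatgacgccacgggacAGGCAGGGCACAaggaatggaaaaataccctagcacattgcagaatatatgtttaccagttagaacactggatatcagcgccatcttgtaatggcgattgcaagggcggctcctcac
Gm13157, chr7:21585131-21585330, plus strand, downstream of Vmn1r114: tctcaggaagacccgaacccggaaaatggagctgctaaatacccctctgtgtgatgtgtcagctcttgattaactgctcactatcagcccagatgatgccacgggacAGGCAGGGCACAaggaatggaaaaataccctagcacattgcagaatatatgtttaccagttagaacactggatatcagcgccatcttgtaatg
Gm13157, chr7:22074397-22074596, plus strand, downstream of Vmn1r126: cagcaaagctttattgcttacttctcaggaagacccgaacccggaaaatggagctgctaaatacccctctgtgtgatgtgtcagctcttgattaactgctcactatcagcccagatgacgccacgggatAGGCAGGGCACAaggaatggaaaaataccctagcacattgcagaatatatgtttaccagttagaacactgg

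For Gm13051, a window in an intron of Vmn2r20 is shown with the 3 windows upstream of Vmn2r20, Vmn2r21 and Vmn2r22. The capitals mark the word CCTCCCCAAAAG in the windows that hold it and the 11 bases aligned with it in the others:
Gm13051, chr6:123364598-123364797, plus strand, in an intron of Vmn2r20: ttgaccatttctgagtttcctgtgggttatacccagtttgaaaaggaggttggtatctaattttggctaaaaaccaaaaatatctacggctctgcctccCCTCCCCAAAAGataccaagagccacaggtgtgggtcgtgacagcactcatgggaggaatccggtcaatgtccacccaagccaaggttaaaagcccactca
Gm13051, chr6:123603746-123603945, minus strand, upstream of Vmn2r22: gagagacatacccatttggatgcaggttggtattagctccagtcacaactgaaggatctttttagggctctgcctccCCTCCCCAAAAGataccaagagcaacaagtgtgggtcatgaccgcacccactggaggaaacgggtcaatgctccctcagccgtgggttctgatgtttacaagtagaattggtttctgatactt
Gm13051, chr6:123371211-123371410, minus strand, upstream of Vmn2r20: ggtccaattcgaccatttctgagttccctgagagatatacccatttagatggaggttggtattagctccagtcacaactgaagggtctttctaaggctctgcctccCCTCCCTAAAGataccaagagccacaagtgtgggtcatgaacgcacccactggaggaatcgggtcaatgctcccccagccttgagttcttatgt
Gm13051, chr6:123486559-123486758, minus strand, upstream of Vmn2r21: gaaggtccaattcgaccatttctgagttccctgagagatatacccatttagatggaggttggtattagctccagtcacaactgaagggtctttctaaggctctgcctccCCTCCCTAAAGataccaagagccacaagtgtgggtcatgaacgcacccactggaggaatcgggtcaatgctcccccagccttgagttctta

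All these peaks combined were about as dense near the receptors as over the whole genome. The annotation held 437 receptor genes, of which 257 were V1R and 180 V2R, and 328 were protein coding and 106 pseudogenes. The 20 kb zone around them covered 17.2 Mb, or 0.671% of the 2559 Mb of sequenced bases, against 0.653% of the peaks. Over the 67 KRAB-ZFPs, the mean share of peaks in the zone was 0.660%, a difference of -0.0118 percentage points from the zone's share of the genome (SD 1.05, n = 67), which did not pass a two-sided permutation test over KRAB-ZFPs (adjusted p = 0.932). The share lay above the zone's share in 22 KRAB-ZFPs and below it in 45. With Gm14406 left out, 255 of the peaks remained, and the share of all peaks was 0.539%.

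Behind this mean, single KRAB-ZFPs differed widely. Gm14406 had the most peaks near receptor genes, 91 of its 5685, or 1.60% with a 95% Wilson interval of 1.31% to 1.96%. It was followed by Gm14419 with 41 of 3906 (1.05%), Gm8898 with 20 of 1517 (1.32%), Gm21082 with 18 of 2211 (0.814%), Gm13051 with 17 of 550 (3.09%) and Gm13157 with 15 of 443 (3.39%). Gm14406 alone gave 26.3% of the peaks, and the 5 leading KRAB-ZFPs gave 54.0%. By share, the 6 highest among KRAB-ZFPs with at least 5 of these peaks were Gm13157, Gm13051, Zfp808 (14 of 544, 2.57%), Gm6710 (8 of 431, 1.86%), Gm14406 and Gm8898. The Wilson interval lay wholly above 0.671% in 9 KRAB-ZFPs, which were 7 of the above (all but Gm21082) together with Gm30910 (4 of 64, 6.25%) and EtOHi1 (2 of 67, 2.99%). It lay wholly below in 7, among them Gm13152 (13 of 5189, 0.251%), Gm13251 (7 of 3300, 0.212%) and Gm13225 (2 of 3570, 0.0560%). Zfp661 and Zfp599, with 1065 and 697 peaks, had none near a receptor gene, with Wilson intervals reaching 0.359% and 0.548%. These intervals cover counting error only.

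**Figure D1:**
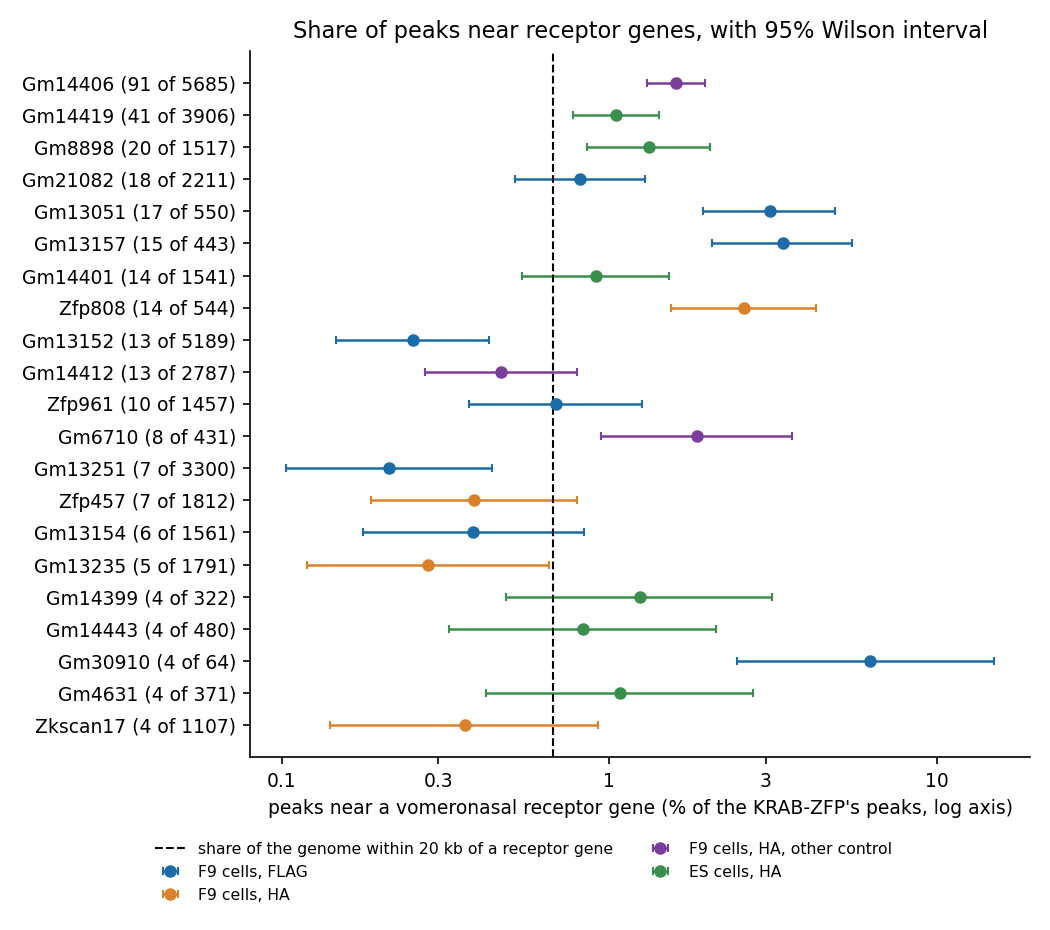
Share of each KRAB-ZFP's peaks that lay near a vomeronasal receptor gene (horizontal, percent, log axis) for the 21 KRAB-ZFPs with at least 3 such peaks, with 95% Wilson intervals and colours for cell line, tag and control. The dashed line is the 0.671% of the genome within 20 kb of a receptor gene. Gm13157, Gm13051, Zfp808 and Gm30910 lay farthest to its right, and Gm13251, Gm13152 and Gm13235 had whole intervals to its left.

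The settings under which peaks were called differed between groups of KRAB-ZFPs, and the shares varied widely within each. The mean share was 0.942% in the 10 F9 KRAB-ZFPs with the other control (SD 1.00), 0.915% in the 18 F9 FLAG ones (SD 1.68), 0.837% in the 9 ES ones (SD 0.414) and 0.359% in the 30 F9 HA ones (SD 0.574). The means of F9 and ES cells differed by less than this spread (0.632% in 58 against 0.837% in 9, adjusted p = 0.810, permutation test). The FLAG and HA samples called against input and a control ChIP of the same antibody did not pass the test either (adjusted p = 0.287, permutation test). Each KRAB-ZFP was assayed in 1 setting, so protein and setting cannot be told apart. In all, 252 of the 346 peaks (72.8%) met the strictest setting of the study, a p-value under 1e-10 and a fold enrichment over 20, against 64.0% of all peaks. The 346 peaks had fold enrichments from 5.12 to 174 with a median of 24.7, and tag counts from 7 to 759 with a median of 39.

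The receptor genes lay in 35 clusters when neighbours at most 500 kb apart were joined, and 31 clusters held a peak. The V1R cluster of 79 genes on chromosome 7 from Vmn1r91 to Vmn1r183 held the most, 43 peaks of 14 KRAB-ZFPs in a zone of 2.43 Mb (17.7 per Mb). The mixed cluster on chromosome 17 from Vmn2r90 to Vmn1r237 held 32 peaks of 15 KRAB-ZFPs (16.9 per Mb), and the V1R cluster on chromosome 13 from Vmn1r188 to Vmn1r223 held 31 of 13 (30.3 per Mb). All peaks of the series together had a density of 20.7 per Mb of genome, so the largest clusters lay on both sides of that value. The 10 clusters of chromosome 7 held 171 peaks, or 49.4%, in 51.7% of the zone.

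By counts of called peaks, the clusters differed in which proteins led them, which was not tested. Near-identical windows are counted singly here. Gm14406 was found in 23 clusters, and gave 10 of 17 peaks in the chromosome 7 cluster from Vmn1r-ps53 to Vmn1r-ps69, 7 of 12 in that from Vmn1r55 to Vmn1r65 and 9 of 21 in that from Vmn2r57 to Vmn2r63. Gm14419 gave 9 of 24 in the V2R cluster from Vmn2r29 to Vmn2r-ps49, where Gm14406 had 1. Gm13157 gave 8 of 43 in the large chromosome 7 V1R cluster, and Gm13051 gave 6 of 16 in the chromosome 6 V2R cluster from Vmn2r19 to Vmn2r27. In the chromosome 10 cluster from Vmn2r80 to Vmn2r83, by contrast, 12 peaks came from 10 KRAB-ZFPs (37.9 per Mb).

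**Figure D2:**
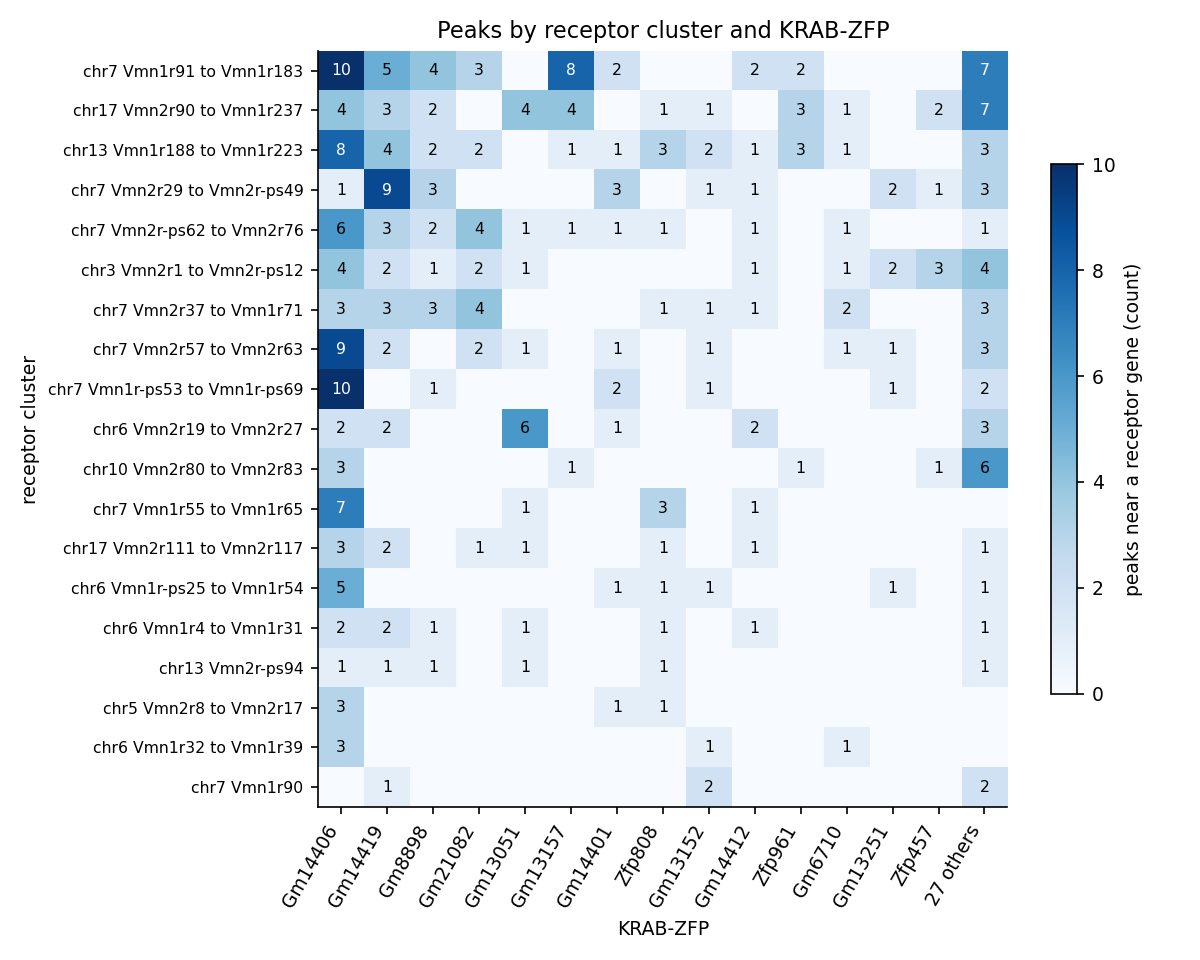
Number of peaks near a receptor gene by receptor cluster (rows, the 19 clusters with at least 5 peaks) and KRAB-ZFP (columns, the 14 with the most peaks and the 27 others summed). Darker cells hold more peaks. Gm14406 has a peak in every row but Vmn1r90, while the 8 peaks of Gm13157 in the Vmn1r91 to Vmn1r183 cluster and the 6 of Gm13051 in the Vmn2r19 to Vmn2r27 cluster stand in single cells.

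The smaller clusters and single genes held few peaks, and some of them were dense for their size. Vmn2r-ps94, a lone V2R pseudogene on chromosome 13, had 6 peaks of 6 KRAB-ZFPs in its zone of 0.0425 Mb (141 per Mb). This was the highest density of any cluster with at least 5 peaks, but a zone this small reaches 5 peaks only at a high density. The 6 peaks were not spread evenly. Those of Gm14406 and Gm14419 lay 2393 bp apart with those of Gm8898 and Gm14399 between them, and those of Gm14399 and Gm14419 overlapped. Those of Zfp808 and Gm13051 lay 3088 bp apart. The lone gene Vmn1r90 on chromosome 7 had 5 peaks (37.8 per Mb). The lowest density among clusters with at least 5 peaks was found for Vmn2r8 to Vmn2r17 on chromosome 5, with 5 peaks in 0.537 Mb (9.30 per Mb). The chromosome 6 cluster from Vmn1r4 to Vmn1r31 had 9 (10.3 per Mb), that from Vmn1r32 to Vmn1r39 had 5 and that from Vmn1r-ps25 to Vmn1r54 had 10. In the remaining clusters, Vmn2r37 to Vmn1r71 and Vmn2r-ps62 to Vmn2r76 on chromosome 7 held 21 and 22 peaks, Vmn2r1 to Vmn2r-ps12 on chromosome 3 held 21, and Vmn2r111 to Vmn2r117 on chromosome 17 held 10. The other 12 clusters with a peak held 24 in all. Vmn2r77 to Vmn2r79 had 4, Vmn1r1, Vmn2r-ps19 and Vmn2r-ps100 to Vmn2r-ps106 had 3 each, Vmn2r-ps2, Vmn1r-ps2 to Vmn1r3 and Vmn1r-ps86 to Vmn1r185 had 2 each, and Vmn2r18, Vmn2r84 to Vmn2r87, Vmn2r-ps110 to Vmn2r89, Vmn2r120 and Vmn2r121 had 1 each. The 4 clusters without a peak were single genes: Vmn2r118, Vmn1r238, Vmn1r-ps1 and Vmn1r239-ps.

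Both receptor families had peaks of many KRAB-ZFPs. The V2R zone of 9.30 Mb held 200 peaks of 36 KRAB-ZFPs and the V1R zone of 7.91 Mb held 146 peaks of 28, and no peak was in both. Scaled to each KRAB-ZFP's mean density over the genome, the V1R zone had 0.899 and the V2R zone 1.05 times that density (difference of -0.150, SD 2.00, n = 67, adjusted p = 0.810, permutation test). The zone of the 1251 olfactory receptor genes (Olfr), the receptors of the main olfactory epithelium and the other large tandem family of chemoreceptors, held 590 peaks, or 1.11% of the peaks in 1.09% of the genome. The scaled density in the vomeronasal zone was 0.982 and in the olfactory zone 0.903 (adjusted p = 0.810, permutation test). Other genes of the vomeronasal organ had 0 to 7 peaks within 20 kb, with densities from 0 to 98.0 per Mb. The transduction channel gene Trpc2 had 2, Gnao1 had 1, Gnai2 had 6 (98.0 per Mb), Gng8 had 3 (68.7 per Mb), the calcium-activated chloride channel genes Ano1 and Ano2 had 1 and 7, and Omp had none. The 7 formyl peptide receptor (Fpr) genes had 2, the 6 H2-M10 genes 3, and H2-M1, H2-M9 and H2-M11 together 3.

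Most peaks lay between the receptor genes, as did most of the zone, of whose 17.2 Mb the genes covered 4.21 Mb. By the annotation, 261 were intergenic, 82 intronic, 2 in a coding exon and 1 in a UTR, a split not given here for other peaks. Relative to the nearest receptor gene, 74 lay within it, 121 upstream and 151 downstream. The density was not even across the zone. It was 17.6 per Mb within receptor genes, 12.4 per Mb up to 5 kb from them, 18.99 per Mb from 5 to 10 kb and 29.5 per Mb from 10 to 20 kb, where 150 of the peaks lay. Without Gm14406 these densities were 14.03, 9.98, 11.7 and 21.9 per Mb, against 18.5 per Mb for the whole genome. In a narrower zone of 10 kb, with 196 peaks, the mean share differed from the zone's share of the genome by -0.141 percentage points (adjusted p = 0.0398, permutation test over 67 KRAB-ZFPs). In that zone the V1R density lay below the V2R density (difference in scaled density of -0.594, adjusted p = 0.0398, permutation test). Neither passed in the main zone of 20 kb (adjusted p = 0.932 and 0.810, permutation tests). The first turned at 50 kb (0.116) and the second with strict peaks (0.151). Each p-value was adjusted within its own setting only.

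Peaks at transcript starts were few. In all, 13 of the 346 (3.76%) were within 1 kb of an annotated start, against 11.2% of all peaks. Over the 21 KRAB-ZFPs with at least 3 peaks near receptors, the mean share was 2.87% for these peaks and 7.72% for the other peaks of the same proteins, lower in 17 and higher in 4, a difference of -4.85 points that missed the threshold (adjusted p = 0.0734, permutation test). With 5 kb in place of 1 kb the difference was -0.459 points (adjusted p = 0.932, permutation test). The 1 kb result also turned on single proteins, since it passed without Gm13251 (adjusted p = 0.0212), without Gm21082 (0.0241) or without Gm6710 (0.0244). Without Gm13152 the difference was smallest, at -3.35 points (adjusted p = 0.145, permutation test).

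The starts concerned were named for their closeness. A Gm6710 peak lay 83 bp upstream of Vmn2r98 (fold enrichment 25.1, 21 tags). Gm14406 peaks lay 88 bp from the start of Vmn2r-ps58 (fold enrichment 54.9) and, within an intron of Vmn2r-ps54, 94 bp from that of Vmn2r-ps55 (32.1). At Vmn2r-ps11, Gm21082 and Gm14419 peaks lay 136 and 463 bp from a start. At Vmn1r90, Gm13225 and Zfp874a peaks lay 626 and 791 bp from it. The single-exon coding regions of Vmn1r54 and Vmn1r46 each held a peak, of Gm13251 (fold enrichment 21.1) and of Gm14420 (5.38). The other 4 were at starts of neighbouring genes, namely Clcn4-2, Zfp606, Gm11332 and Gm11284, of which those at Clcn4-2 and Zfp606 were Gm13152 peaks.

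The peaks were spread over many receptor genes: 187 of the 437 were the nearest receptor of a peak. Vmn1r63 is annotated as 2 entries that were credited with the same peaks, and both are in this count. The pseudogene Vmn2r-ps11 on chromosome 3 was nearest to 13 peaks of 11 KRAB-ZFPs and is annotated over chr3:64436785-64648665. This long span overlaps other receptor genes, and its site of Gm13251 and Gm6710 also lay within Vmn2r7. A peak inside several receptor genes was counted for the first listed of them, so the rank of Vmn2r-ps11 depends in part on its annotation. Vmn2r35 on chromosome 7 was nearest to 10 peaks, 5 of them of Gm14419, and Vmn2r60 to 8 peaks of 7 KRAB-ZFPs. Vmn1r-ps75, Vmn2r-ps49, Vmn2r-ps94, Vmn2r82 and Vmn2r83 had 6 each, and Vmn1r90, Vmn2r-ps81, Vmn2r38 and Vmn2r96 had 5 each.

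The windows near receptor genes were made of repeated sequence more often than the other windows of the same proteins. For each window, the number of exact copies of its 24-mers in mm9 was counted, and a window was called multi-copy when their median was at least 2. By this measure 287 of the 346 windows were multi-copy (82.9%), against 41.7% of all peaks. Over the 21 KRAB-ZFPs with at least 3 of these peaks, the mean share was 76.8% near receptors and 49.5% among the same proteins' other peaks, a difference of 27.4 percentage points (SD 22.3, n = 21), higher near receptors in 20 of 21 (adjusted p = 0.00024, two-sided permutation test). The size of the difference depended on the copy number asked for: with a median of at least 10 copies it was 15.2 points (adjusted p = 0.00216) and with at least 100 copies 7.92 points (adjusted p = 0.025, permutation tests). The size of the gap varied among the proteins. It was wide for several, with 85.7% against 10.9% for Gm13251, 66.7% against 10.997% for Gm13154, 8 of 10 peaks against 27.02% for Zfp961, 92.9% against 40.5% for Gm14401 and 62.5% against 15.1% for Gm6710. It was narrow for Gm14406, with 95.60% against 95.01%, and for Zkscan17, with 1 of 4 peaks against 20.4%. Gm13051 was the one with a lower value near receptors, 82.4% against 84.4%. Within the settings the difference was 27.97 points in 8 F9 FLAG KRAB-ZFPs, 19.8 in 4 F9 HA ones, 24.05 in 3 with the other control and 33.3 in 6 ES ones. None of these passed with so few (adjusted exact permutation p from 0.104 to 0.714).

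The zone itself is rich in repeated sequence. Of 17235 evenly spaced 200 bp windows in the zone, 58.0% were multi-copy, against 18.9% of 50833 in the rest of the genome, and the part of this difference in the result was not tested. Since receptor clusters arose by duplication, copies can lie within the zone, and a count of copies outside the zone alone was added after seeing the data. It gave 80.3% of the 346 windows with a copy outside the zone and a difference of 24.1 points over the 21 KRAB-ZFPs (adjusted p = 0.0012, permutation test). Of the evenly spaced windows in the zone, 47.7% had a copy outside it. A read that matched several places equally well was put at one of them pseudo-randomly, so the tags of a multi-copy window are in part those of its copies, and which copy is occupied cannot be told apart where windows are identical.

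**Figure D3:**
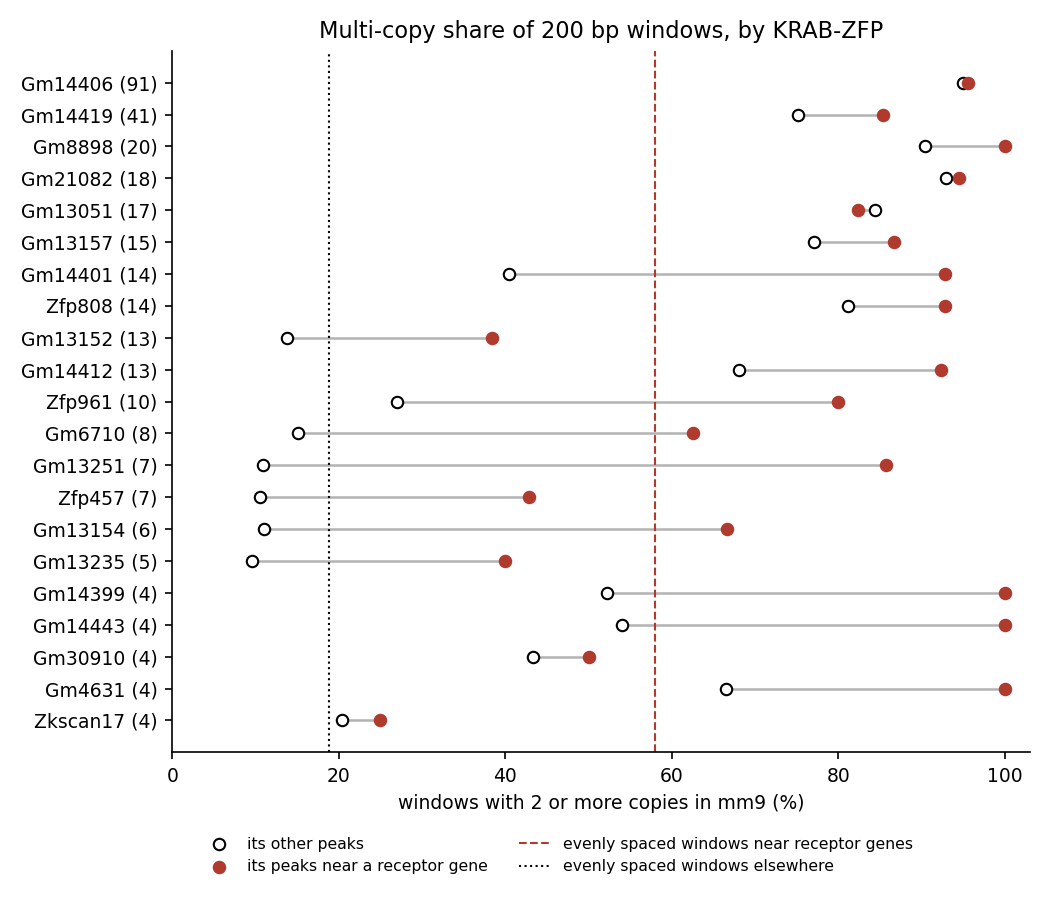
Percent of 200 bp windows with a median of at least 2 copies of their 24-mers in mm9 (horizontal) for the peaks near a receptor gene (red) and the other peaks (open) of the 21 KRAB-ZFPs with at least 3 of the former, whose number is in brackets. The dashed and dotted lines are evenly spaced windows near receptor genes (58.0%) and elsewhere (18.9%). The red point lies to the right in 20 of 21 rows, all but Gm13051.

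The windows near receptors were also slightly poorer in G and C. The mean over KRAB-ZFPs of the median GC content was 45.8% near receptors and 47.7% among the same proteins' other peaks, a difference of -1.86 points (SD 3.85, n = 21), lower in 14 and higher in 5 (adjusted p = 0.0125, permutation test). Within the settings it was -3.41, -1.31, -0.583 and -0.792 points in the order above, none of them passing with so few KRAB-ZFPs. One protein moved this value by over 1.5 times: Gm13152 had a median of 47.0% near receptors and 64.0% elsewhere, and without it the difference was -1.10 points (adjusted p = 0.0245). Evenly spaced windows in the zone had a mean of 38.8% and those elsewhere 41.8%, and the part of this in the result was not tested. Fold enrichment did not pass the test. On the log10 scale it differed by 0.0151 (adjusted p = 0.810, higher in 11 and lower in 10), with medians of 25.2 against 26.3 for Gm14406, 66.4 against 59.96 for Gm13051 and 102 against 59.1 for Gm13157. Tag counts and called widths did not pass the test either (adjusted p = 0.810 for both, permutation tests over 21 KRAB-ZFPs).

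Most of the windows fell into few sequence families. When windows that aligned over at least 80 bp were joined, 273 of 346 fell into 17 families of at least 3. The largest held 90 of the 91 Gm14406 windows, with a median identity of 95.8% between aligned windows and a median of 7068 copies of their 24-mers. The second held 34 of 41 Gm14419 windows, the third 18 of 20 Gm8898 windows with 9 of Gm14401 and 3 of Gm14443, and the fourth 16 of 18 Gm21082 windows together with 13 of 15 Gm13157 windows. The fifth held all 17 of Gm13051 with a median of 11 copies and an identity of 84.4%. Zfp808 had 12 of 14 in one family (3.5 copies), Gm14412 11 of 13, Gm13152 11 of 13 and Gm30910 4 of 4. The Gm13152 family was more diverged by this measure, with a median identity of 80.3% and a median of 1 exact copy, and so was that of Gm30910 (79.5%, 1.5 copies).

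The 12-base words found elsewhere in the genome were present in most of these windows when pooled, but not for every protein. For the 12 KRAB-ZFPs with a word of their own, 208 of 272 windows near receptors (76.5%) held it, and the share was at or above that in the protein's other windows in 9 and below it in 3. Gm14406 had CTTACAGGAAAC in 75 of 91 windows (82.4%) and in 82.9% of its others, and the word was in 0.0317% of the windows of other KRAB-ZFPs. Gm14419 had CAGTTCTGGTTC in 33 of 41 (80.5% against 64.3%), Gm8898 had GGGGACCTCTCA in 18 of 20 (against 79.4% of its others) and Gm21082 had CTGCAGCCAATC in 16 of 18 (88.9% against 82.3%). Gm13157 had AGGCAGGGCACA in 13 of 15 (86.7% against 58.9%), Gm13051 had CCTCCCCAAAAG in 12 of 17 (70.6% against 73.0%) and Zfp808 had CATGAAACACAG in 6 of 14 (42.9% against 54.7%). The widest gaps were for Gm13152, with CAGACCCTCTGG in 10 of 13 (76.9%) and in 17.6% of its others, and for Gm14412, with CCTCAGCCTCAG in 11 of 13 (84.6%) and in 38.4%. The word occurred in 0.464% of evenly spaced zone windows and 0.132% of those elsewhere for Gm14406, and in at most 0.104% of either for the other 11.

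**Figure D4:**
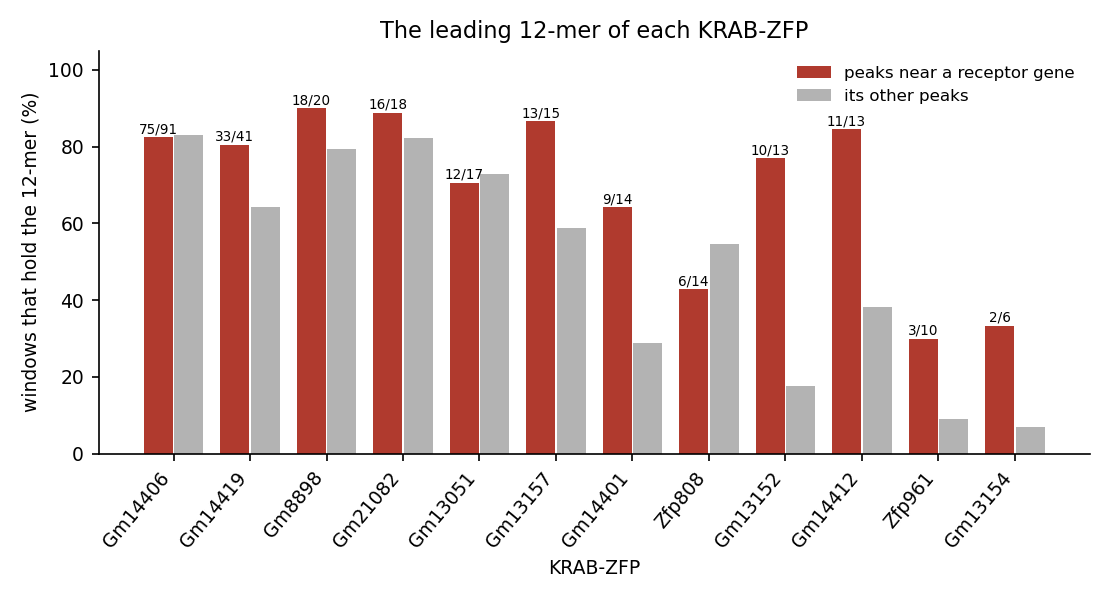
Percent of windows that hold the leading 12-base word of the KRAB-ZFP, taken from its peaks away from receptor genes, for its peaks near a receptor gene (red, with counts) and its other peaks (grey), for the 12 KRAB-ZFPs whose word was in under 1% of the windows of other KRAB-ZFPs. The grey bars are the windows from which the word was chosen. The red bar is lower than the grey one for Gm14406, Gm13051 and Zfp808 and higher for the other 9.

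A copy of the word near a receptor gene was called as a peak for some proteins more often than for others. Of 43 copies of the Gm14419 word in the zone, 33 lay in a Gm14419 peak (76.7%), close to the 75.5% of copies elsewhere, and of 23 copies of the Gm8898 word 18 did (78.3% against 63.1%). For Gm13157 it was 13 of 20 (65.0% against 20.6%), and for Gm13051 12 of 25 (48.0% against 28.3%). For Gm14406 it was 75 of 375 (20.0% against 29.1%), and for Gm21082 16 of 84 (19.05% against 23.8%). These shares are descriptions, since the word was chosen from called peaks.

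Gm13157 gave 8 near-identical peaks across the chromosome 7 V1R cluster, each nearest to a different gene: Vmn1r91, Vmn1r100, Vmn1r114, Vmn1r124, Vmn1r126, Vmn1r139, Vmn1r148 and Vmn1r157. Their pairwise identity was 98.2% to 100% over the bases shared, and 149 of the 154 columns covered by all 8 were identical. In 7 of the 8 the peak lay downstream of its gene by between 9923 and 11024 bp, and at Vmn1r124 by 17142 bp. The fold enrichments were 105.1 at Vmn1r91, 91.94 at Vmn1r100, 68.96 at Vmn1r114, 105.1 at Vmn1r124, 68.96 at Vmn1r126, 111.6 at Vmn1r139, 108.4 at Vmn1r148 and 101.8 at Vmn1r157, with 42 to 68 tags each. All 8 lay above the median of 59.1 for the protein's peaks away from receptors. The longest stretch identical in all 8 windows was 53 bases and occurred 13 times in mm9. Its 8 copies in the zone were those of these peaks, from which it was taken, so their being called was fixed in advance. Of its 5 copies elsewhere, 2 were in a Gm13157 peak. Reads within such a stretch were placed at random among its copies, so the 8 fold enrichments are not independent.

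The other Gm13157 peaks near receptors included the highest fold enrichments of the whole set. They were 174 downstream of Vmn1r191 on chromosome 13, 144 upstream of Vmn2r101 on chromosome 17 and 122 downstream of Vmn2r82 on chromosome 10. Of the 6 highest, 5 were Gm13157 peaks and 1 was a Gm13154 peak near Vmn1r208 (141, 285 tags). All 15 Gm13157 peaks and all 14 Zfp808 peaks were intergenic, against 261 of the 346, and the share among their other peaks is not given here. The highest for Gm14406 was 75.9 with 146 tags, 1464 bp upstream of Vmn1r1, in a window with a median of 2 copies and without the word. Its next, at Vmn2r-ps58, had a median of 1 exact copy and was also without the word. Only exact copies are counted, so such a window can still be a diverged repeat. The highest for Gm14419 was 63.0 and for Gm8898 26.4, in the windows printed above. The Zfp808 peaks had fold enrichments from 23.6 to 90.6 with a median of 71.7, against 52.7 for its other peaks.

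Gm13051 bound the adjacent V2R genes Vmn2r20, Vmn2r21 and Vmn2r22 on chromosome 6 in the same layout, with a peak in an intron and a second upstream. The intronic peaks lay 3381, 3382 and 3390 bp from the starts of the genes, and the upstream ones 3232, 3235 and 3193 bp from them. The pairs were 6613, 6617 and 6583 bp apart, and the series held 4 Gm13051 pairs at 300 bp to 10 kb in all. The intronic windows were 98.6% to 100% identical, shared a run of 97 bases that occurs in mm9 only at these 3 places, and had fold enrichments of 77.8, 72.9 and 78.2 with 134, 111 and 126 tags. Single 24-mers of the intronic windows recur more widely, with medians of 28, 28 and 32 copies in mm9. Reads that match several of these places equally well were placed at random among them, so the 3 values are not independent.

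The upstream windows differed. At Vmn2r22 the fold enrichment was 102 with 166 tags, while at Vmn2r20 and Vmn2r21 it was 27.6 with 20 tags and 21.1 with 22 tags. The window of Vmn2r22 holds the word CCTCCCCAAAAG, and the windows of Vmn2r20 and Vmn2r21 have 11 bases in its place, as printed above. These 2 windows were identical over the bases they share and had a median of 2 copies of their 24-mers in mm9, and that of Vmn2r22 had 1, so a read of the former could be placed at either gene. The part of the word and of read placement in the difference was not tested. Among all Gm13051 peaks near receptors, the median fold enrichment was 78.0 in the 12 windows with the word and 34.0 in the 5 without it, and among its other peaks it was 64.8 and 47.0. For Gm13157 it was 105.1 with and 34.5 without the word near receptors, and 78.8 and 36.1 elsewhere. Near receptors 13 of the 15 Gm13157 windows held the word, including the 8 near-identical ones of chromosome 7. The value of 34.5 thus rests on very few peaks. For Gm14419 the median fold enrichment was 23.5 and 12.2 near receptors (33 of 41 windows with the word), and for Zfp808 79.3 and 36.8 (6 of 14). For Gm14406 the median was lower with the word in both (24.3 and 25.9 near receptors). Over the 12 KRAB-ZFPs, the median near receptors was higher with the word in 8, lower in 3 and equal in 1, and among other peaks higher in 9 and lower in 3. These medians were compared after seeing the data and carry no test. For some proteins few windows near receptors lacked the word, since 18 of 20 held it for Gm8898 and 16 of 18 for Gm21082.

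**Figure D5:**
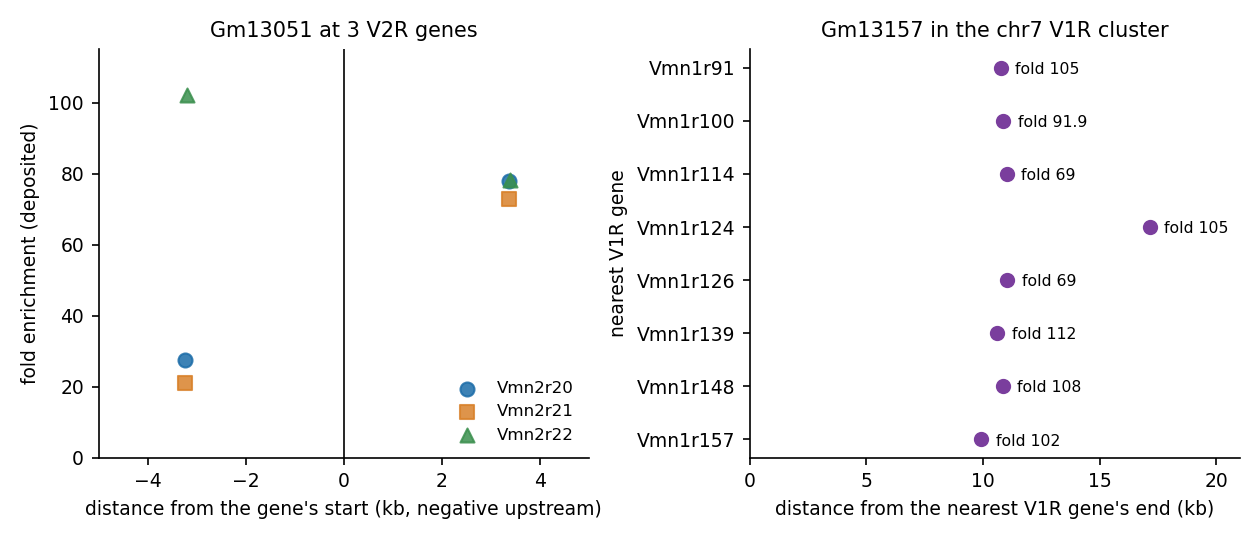
Left, fold enrichment (vertical, as deposited) of the 6 Gm13051 peaks at Vmn2r20, Vmn2r21 and Vmn2r22 against distance from the start of the gene (horizontal, kb, negative upstream). Right, distance (horizontal, kb) of 8 Gm13157 peaks from the end of the nearest V1R gene (vertical), with the fold enrichment of each. The intronic Gm13051 peaks lie together at 72.9 to 78.2 while the upstream ones spread from 21.1 to 102, and 7 of the 8 Gm13157 peaks lie about the same distance from their gene.

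Peaks of some proteins came in neighbouring pairs, near the receptors as elsewhere. Pairs of Gm21082 peaks 4 to 8 kb apart were found 6 times near receptors, at Vmn2r-ps11, Vmn2r38, Vmn2r46, Vmn1r168, Vmn2r60 and Vmn2r-ps81, with distances of 4239 to 6774 bp. A Gm8898 peak lay inside 5 of the 6 pairs, 1719 to 1809 bp from one end, and in the whole series inside 370 of 620 such pairs (59.7%) at a median of 1791 bp. A Gm14401 peak lay inside 2 of the 6, 1025 and 1043 bp from one end, and inside 107 of the 620 at a median of 1055 bp. Gm14419 and Gm8898 peaks came within 300 bp to 10 kb of each other 23 times near receptors, at 524 to 9741 bp, with a median distance of 1482 bp near them and 1497 bp in all. Gm14401 and Gm14419 did so 14 times, at 1454 to 7683 bp, with medians of 3612 and 3623 bp. These counts near receptors are included in those of the series.

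A site was seldom shared by several proteins. When windows that overlapped by at least 25% were joined, 24 of the 346 peaks (6.94%) lay at a site called in 2 or more KRAB-ZFPs, against 13.8% of all peaks. The mean over the 21 KRAB-ZFPs was 14.7% near receptors and 13.8% elsewhere (adjusted p = 0.819, permutation test), so the gap in the pooled shares was not seen in that mean. There were 11 shared sites, 9 with 2 KRAB-ZFPs and 2 with 3. At chr10:78860302-78860615, 459 bp from the end of Vmn2r82, Gm13235, Zfp457 and Zkscan17 had fold enrichments of 12.04, 12.46 and 21.48. The sequence there had a median of 1 exact copy. At chr7:7376769-7376977, in an intron of Vmn2r-ps36, Gm13235, Zfp457 and Zfp872 had 11.5, 17.8 and 24.6. All 4 of these proteins were F9 HA samples called against the same control.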

How the data were processed

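ChIP-seq of 68 overexpressed, epitope-tagged KRAB-ZFPs in mouse F9 EC or B6 ES cells was deposited with 6 controls, and 67 KRAB-ZFPs had peaks in the table. The paper discarded some of the 68 data sets, which gave neither a motif nor a target element and had low signal relative to noise. No KRAB-ZFP was left out here for that reason, so the 67 include peak sets that the authors did not accept. The authors mapped reads to mm9 with Bowtie or Bowtie2 and called peaks per sample with MACS 1.4.2. A read with several equally good positions was placed at 1 of them, chosen pseudo-randomly. For each 200 bp window centred on a summit, the deposited table gives the count of tags in the called peak, a score (the negative log10 of the p-value on the scale MACS uses, in which 50 stands for 1e-05), the fold enrichment over local background as a ratio, and a false discovery rate in percent. Thresholds per the labels were a p-value of 1e-10 or 1e-05 and an enrichment of 20 or 10 in F9 EC cells, and a p-value of 1e-05 alone in ES cells. Of 53255 peaks, 244 carried a name that matched no label, none of them near a receptor gene, and were left out. Library depth was not available for use here, so tag counts were not scaled.

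Receptor genes, transcripts and exons came from gencode vM1 on mm9, and receptor genes at most 500 kb apart were joined into clusters. Copies of each 24-mer were counted over both strands of mm9 with Python 3.11.15 and numba 0.67.0. Windows were joined into families with BLAST 2.17.0 (E-value at most 1e-10, at least 80 bp) and aligned with MAFFT 7.526. Sequences were read from the mm9 genome. A match to a 12-base word is a description and not a binding site.

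KRAB-ZFPs were the units of every test, with 1 sample each. Differences within KRAB-ZFPs were tested by flipping signs and differences between groups of KRAB-ZFPs by permuting labels, two-sided, with 100000 resamples or exactly where patterns could be listed, in numpy 2.4.6. The p-values were adjusted over 12 tests by the Benjamini-Hochberg method, with a threshold of 0.05. The scripts were tested on simulated data. Wilson intervals at 95% came from scipy 1.17.1 and cover counting error only.

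The peaks, gene lists and tests were chosen with earlier results of these data known. KRAB-ZFPs were named when among the 6 with the most peaks near receptors or the 6 with the highest share (at least 5 peaks). Receptor genes were named when among the 12 nearest to most peaks or when a peak lay within 1 kb of a transcript start, and all clusters with a peak were described. Single peaks were named when among the 6 of highest fold enrichment, at the sites called in most KRAB-ZFPs, or highest for the 3 leading KRAB-ZFPs. The other KRAB-ZFPs, the 12-base words, the repeated sites of Gm13157 and Gm13051, the Gm21082 pairs of 4 to 8 kb, the densities by distance, the evenly spaced windows and 2 of the alternatives were chosen after seeing the data.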

Additional observations from a re-analysis of the deposited data

How the results depend on the processing

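Each KRAB-ZFP had 1 sample, so no replicate of a protein could be left out, and leaving out 1 KRAB-ZFP in turn stands in its place. No paired analysis was possible because replicate numbers only name the samples in accession order and no protein was assayed again. Of 113 recomputed differences, 84 kept their direction and their side of the threshold, and of 7 recomputed counts 4 stayed within 1.5 times. Of the others of the 113, 17 turned, 10 no longer passed and 2 passed where the main test had not. Only the multi-copy and GC differences had passed in the main tests, and the 10 all belong to them. For the other results, the side that was kept was that of not passing. The difference in multi-copy share kept its sign under every alternative, but was 15.2 points with at least 10 copies and 7.92 with at least 100. It ran from 24.98 to 28.83 points over the 21 fits without 1 KRAB-ZFP, and the GC difference from -1.99 to -1.10. Within the settings the multi-copy difference was 27.97 (F9 FLAG, adjusted p = 0.234, exact permutation test), 19.8 (F9 HA, 0.417), 24.05 (other control, 0.714) and 33.3 points (ES, 0.104), where 3 to 8 KRAB-ZFPs entered. The difference at transcript starts was -0.459 points with 5 kb in place of 1 kb. Within the settings, where so few KRAB-ZFPs could hardly pass or not at all, the GC difference was -3.41, -1.31, -0.583 and -0.792 points. It no longer passed at 50 kb (-1.10) or with strict peaks (-2.07). The share near receptors relative to the zone's share of the genome passed at 10 kb (-0.141) and turned at 50 kb (0.116) and within F9 FLAG, other-control and ES samples (0.243, 0.270 and 0.165). The V1R to V2R difference passed at 10 kb (-0.594) and turned with strict peaks (0.151) and in F9 FLAG samples (0.315). The difference between receptor and olfactory zones turned at 10 kb (-0.143) and in F9 HA samples (-0.188). The difference in shared sites turned at 50 kb (-1.95), with strict peaks (-3.63), in F9 FLAG (-2.54) and other-control samples (-2.89) and with at least 5 peaks per KRAB-ZFP (-1.87). Fold enrichment turned at 50 kb (-0.00537 on the log10 scale), called width at 10 kb (0.00168) and in ES samples (0.0235), and the F9 to ES difference with strict peaks (0.290). None of the values that turned had passed the test. The zone of 10 kb held 196 peaks and that of 50 kb 541, and gaps of at most 200 kb gave 53 clusters. The causes were not tested. Few KRAB-ZFPs, thresholds that differed between settings, unknown library depth and the random placement of reads in repeated sequence limit these results.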
